A study of Mus musculus with 81 samples.

Results

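The comparison described here sets neutrophils of a DBA mouse against neutrophils of C57BL/6J, the strain from which the mouse reference genome was built. Its members were chosen by sample title: the 2 arrays titled DBA2 and the 5 arrays titled B6, together 7 of the 81 arrays of a survey of granulocytes from inbred strains that fall into 40 titled groups. The DBA arrays carry the title DBA2 and the background label DBA/1LacJ, so they are called DBA here and not assigned to a substrain. All 7 samples were CD11b+ Ly6G+ granulocytes sorted from bone marrow of males labelled as 6 weeks old, which the series text describes as obtained at 5 weeks of age from the production colony of the Jackson Laboratory. No animal was treated, no genotype was engineered, and every strain was kept under the same specific-pathogen-free conditions. Each array held RNA from a small pool of mice, and pools of 1 strain were biological replicates. Each group is taken as 1 inbred strain by its title, so strain differences of any gene in the genome are compared at once. For the groups titled BPL, BTBR, Balb and C57BR, the background label names another strain than the title. These groups are among the 33 other classical strains used for comparison below. So is the group titled KK, whose background label KK.Cg-Ay/J names the Ay allele. The 5 wild-derived groups, titled CAS, JF1Ms, MSM, PWD and WSB, are not among them.

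Neutrophils are short-lived phagocytes that leave the bone marrow loaded with granules of proteases and antimicrobial proteins, and they kill microbes with these granules and with oxidants. In the marrow, dividing precursors give way to cells that no longer divide, and genes of division, of granule proteins and of mature-cell receptors are used one after the other. DBA and C57BL/6J descend from separate lines of fancy mice and are among the most used pairs of strains in mouse genetics. They are known to differ in coat colour alleles, in histocompatibility haplotype and in susceptibility to several infections.

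The levels are log2 of RMA intensities, one value per probe set and array, where 1 unit is a doubling of intensity. The 7 arrays had medians between 98.9 and 109.5 intensity units. The 2 DBA arrays correlated at 0.996 over all probe sets, the C57BL/6J arrays at 0.990 to 0.996 with each other, and DBA with C57BL/6J arrays at 0.983 to 0.987. The 10 neutrophil markers on the list, among them Ly6g, Itgam and S100a8, averaged 13.28 to 13.34 in all 7 arrays and none passed the test. The sorted population thus carried the defining transcripts of its label at like intensities in both groups. These markers lie near the bright end of the scale, and whether intensity still follows transcript level there was not tested. Probes on the array follow the C57BL/6J sequence, so a variant under a probe can lower the intensity in another strain without a change of transcript level; this was not tested for any gene below.

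DBA and C57BL/6J neutrophils differed in a large number of transcripts in both directions, and the largest difference was in Rnase2a. Of 24922 probe sets, 2094 (8.40%) were called, meaning an adjusted p under 0.05 by limma with Benjamini-Hochberg adjustment, 997 of them higher in DBA (4.00%) and 1097 lower (4.40%). A further minimum of 1 log2 unit, or 2-fold, left 360 probe sets (1.44%), 196 higher in DBA (0.786%) and 164 lower (0.658%). The median difference over all probe sets was 0.03. Differences of at least 4-fold were found for 31 probe sets higher and 30 lower in DBA, and of at least 8-fold for 8 and 11. Where the mean over all arrays reached 7, clearly above the dim end of the scale, 1595 of 10816 (14.7%) were called. These shares are to be read beside each count of called list members below. The number called at any size was 1142 without DBA replicate 1 and 964 without DBA replicate 2, whereas the number called at 2-fold was 396 and 313. The 2-fold calls fell on 265 genes with 1 symbol, 147 higher and 118 lower. In bulk RNA, fewer cells of a type and less RNA per cell cannot be told apart.

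**Figure D1:**
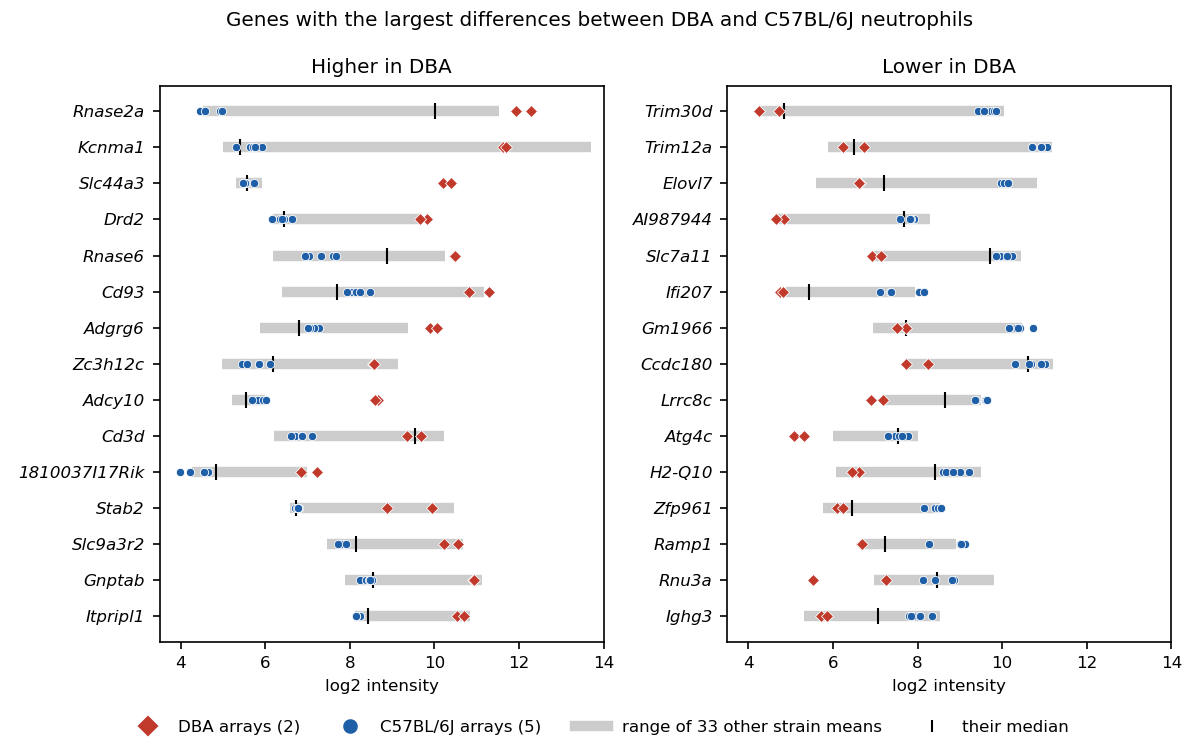
Log2 intensity (horizontal axis) of the 15 genes with the largest difference in each direction. Diamonds are the 2 DBA arrays, circles the 5 C57BL/6J arrays, the grey bar the range and the tick the median of the means of the 33 other classical strain groups. Rnase2a sits at 11.93 and 12.28 in DBA against 4.46 to 4.98 in C57BL/6J, and Trim30d shows the opposite pattern at 4.72 and 4.24 against 9.42 to 9.86.

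The largest difference of all was in a ribonuclease. Rnase2a (probe set 10419568), a secreted ribonuclease of the family found in eosinophil granules, had levels of 11.93 and 12.28 in DBA and of 4.93, 4.49, 4.46, 4.57 and 4.98 in C57BL/6J. The DBA arrays were among the bright probe sets of the array and the C57BL/6J arrays near its dim end, with no overlap. The difference was 7.42 ± 0.18 (SE, n = 2 and 5) on the log2 scale, with an adjusted p of 7.8e-36. Here and below, the SE and p use a spread estimated over all 40 groups of the series, not from the 2 DBA arrays alone. No exact fold is given, since the files hold no detection limit and C57BL/6J may be at background. DBA had the highest mean of the 40 groups. C57BL/10J, a close relative of C57BL/6J, was as low at 4.81, and the other 33 classical groups had a median of 10.02 and ran from 4.53 to 11.52.

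Rnase6, an antimicrobial ribonuclease of phagocytes encoded in the same cluster, was at 10.47 and 10.50 in DBA and between 6.94 and 7.66 in C57BL/6J, a difference of 3.17 ± 0.18 (adjusted p = 1.2e-19). DBA again had the highest mean of all 40 groups. Rnase2b, a close relative of Rnase2a, was at 6.01 and 6.32 against 4.71 to 5.09, 1.24 ± 0.13 higher (adjusted p = 4.7e-10). Ear6, another eosinophil-associated ribonuclease, was at 7.76 and 8.03 against 6.63 to 6.90, 1.11 ± 0.15 higher (adjusted p = 2.4e-07). Ear14 was at 3.80 and 3.78 against 3.49 to 3.70, which did not pass the test (0.17 ± 0.14, adjusted p = 0.56). Of the 4 measured members of the eosinophil-associated ribonuclease list, 3 were thus higher and none lower, with a median of 1.18, and the same count was found in each fit without 1 of the 7 arrays. These genes are near-identical in parts, so their probe sets may share transcripts.

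Markers of eosinophils other than these enzymes were not called. Of 7 eosinophil markers only Ear6 was called. Epx, the eosinophil peroxidase, was at 5.86 and 5.60 in DBA against 5.41 to 5.64 (0.22 ± 0.10, adjusted p = 0.24). Siglecf, a surface receptor of eosinophils, was at 8.09 and 8.05 against 8.18 to 8.44 (-0.22 ± 0.11, adjusted p = 0.29), and Ccr3, the eotaxin receptor, at 6.59 and 6.50 against 6.81 to 7.26 (-0.45 ± 0.19, adjusted p = 0.17). The mean of the 7 markers was 6.55 and 6.55 in DBA and 6.38 to 6.52 in C57BL/6J.

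Several transcripts of membrane proteins were bright in DBA and dim in C57BL/6J. Kcnma1 (probe set 10582545), the pore subunit of the large-conductance calcium-activated potassium channel, was at 11.63 and 11.69 in DBA and between 5.31 and 5.92 in C57BL/6J, a difference of 6.00 ± 0.18 (adjusted p = 2.1e-31). Its other probe set was dim in both groups, at means of 5.16 and 5.04, and did not pass the test (0.12, adjusted p = 0.59). The median of the 33 other classical groups was 5.41, and 6 of the 33 lay nearer to DBA than to C57BL/6J. Slc44a3 (probe set 10501811), a choline transporter-like protein, was at 10.20 and 10.39 in DBA and between 5.47 and 5.73 in C57BL/6J, 4.74 ± 0.11 higher (adjusted p = 2.6e-36). No other group of the 40 exceeded 5.92, so that DBA stood alone for this gene. Adcy10, the bicarbonate-sensitive soluble adenylyl cyclase, was at 8.66 and 8.59 against 5.68 to 6.01, 2.77 ± 0.11 higher (adjusted p = 3.9e-26), and none of the 33 other classical groups lay nearer to DBA, although 3 wild-derived groups were higher still.

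Drd2, a dopamine receptor, was at 9.83 and 9.67 in DBA and between 6.16 and 6.64 in C57BL/6J (difference 3.35 ± 0.12, adjusted p = 3.9e-28). The groups titled AJ (9.66), Balb (9.25) and C3H (8.77) were also bright, and no further group exceeded 6.68. Cd93, a lectin-like receptor of myeloid and endothelial cells, was at 11.29 and 10.83 against 7.94 to 8.49, 2.89 ± 0.15 higher (adjusted p = 1.8e-21). The other classical groups ran from 6.40 (DDY) to 11.17 (NZW), and AJ (11.12) also lay above the DBA mean of 11.06. Adgrg6 encodes an adhesion-class receptor that signals through G proteins and was at 9.89 and 10.07 against 7.0 to 7.28 (2.88 ± 0.14 higher, adjusted p = 8.5e-23). Stab2, a scavenger receptor for hyaluronan, was at 9.93 and 8.87 against 6.71 to 6.79. Its 2 DBA arrays differed by more than the whole C57BL/6J range, yet both lay above it (2.64 ± 0.12, adjusted p = 6.3e-24). This SE reflects the spread over all 40 groups and not the wide gap between the 2 DBA arrays. For Stab2 the groups titled RIII (10.47) and SM (10.44) lay above the DBA mean of 9.40. Itgb1, the integrin beta 1 chain, was at 9.54 in both DBA arrays and between 7.89 and 8.32 in C57BL/6J, 1.41 ± 0.13 higher (adjusted p = 2.5e-12), and DBA had the highest mean of the 40 groups.

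Among the remaining genes with the largest increases were enzymes and regulators. Gnptab, which makes the mannose 6-phosphate tag that sends enzymes to lysosomes, was at 10.92 and 10.94 in DBA and between 8.24 and 8.53 in C57BL/6J (2.52 ± 0.12 higher, adjusted p = 1.3e-23). Zc3h12c, a relative of the RNA-degrading protein Regnase-1, was at 8.54 and 8.57 against 5.45 to 6.12 (2.78 ± 0.15 higher, adjusted p = 1.7e-20), and its other probe set differed by 3.18. Slc9a3r2, a scaffold that ties membrane proteins to the cytoskeleton, rose by 2.57, Itpripl1, a relative of an inositol trisphosphate receptor-binding protein, by 2.45, and the uncharacterised gene 1810037I17Rik by 2.65, each with no overlap between the arrays of the groups.

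Cd3d, which encodes a chain of the T-cell receptor complex, was at 9.36 and 9.68 in DBA and at 6.70, 6.86, 6.61, 7.11 and 6.87 in C57BL/6J. The difference was 2.69 ± 0.16 (adjusted p = 5.7e-19). Cd3g, its neighbour gene, was at 6.74 and 7.07 against 5.68 to 6.05, 1.09 ± 0.22 higher (adjusted p = 0.00028), but was not called without DBA replicate 2 (0.92, adjusted p = 0.055). The third chain, Cd3e, was at 6.92 and 7.17 against 6.75 to 7.17 and did not pass the test (0.13 ± 0.11, adjusted p = 0.58). Of 8 markers of T and natural killer cells, only Cd3d and Cd3g were called, and the differences of Cd4 (0.13), Cd8a (0.07) and Nkg7 (0.15) did not pass the test. For Cd3d it was C57BL/6J that departed from most strains: 23 of the 33 other classical groups lay nearer to DBA, and C57BL/10J was at 6.75.

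Among transcripts lower in DBA, the largest differences were in a cluster of Trim genes, which encode RING-type ubiquitin ligases related to the retrovirus restriction factor TRIM5. Trim30d (probe set 10566366) was at 4.72 and 4.24 in DBA and at 9.73, 9.42, 9.81, 9.56 and 9.86 in C57BL/6J, a difference of -5.20 ± 0.18 (adjusted p = 1.8e-28). Trim12a (probe set 10566326) was at 6.72 and 6.23 against 10.71 to 11.07 (-4.39 ± 0.15, adjusted p = 8.4e-29). Both were bright in every C57BL/6J array, and Trim30d was near the dim end of the scale in DBA. Their neighbours Trim12c and Trim30a stayed bright in both groups. Trim30a was at 10.98 and 10.70 against 11.30 to 11.46, 0.54 ± 0.12 lower (adjusted p = 0.0012), and Trim12c at 10.39 and 9.81 against 8.93 to 9.58, 0.73 ± 0.20 higher (adjusted p = 0.013). Neither of the smaller calls held in every fit: Trim12c was at 0.44 (adjusted p = 0.51) without DBA replicate 1, and Trim30a at -0.40 (adjusted p = 0.18) without DBA replicate 2. In all, 3 of 7 measured members of the cluster were lower and 1 higher, beside 4.40% and 4.00% of all probe sets, and the median was -0.30. Members of this family share long stretches of sequence, and a probe set may read more than 1 of them.

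C57BL/6J was the less common type for both Trim genes: 20 of the 33 other classical groups for Trim30d, and 22 for Trim12a, lay nearer to DBA. The median of these groups was 4.84 for Trim30d and 6.49 for Trim12a, while C57BL/10J stood with C57BL/6J at 9.74 and 10.55.

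**Figure D2:**
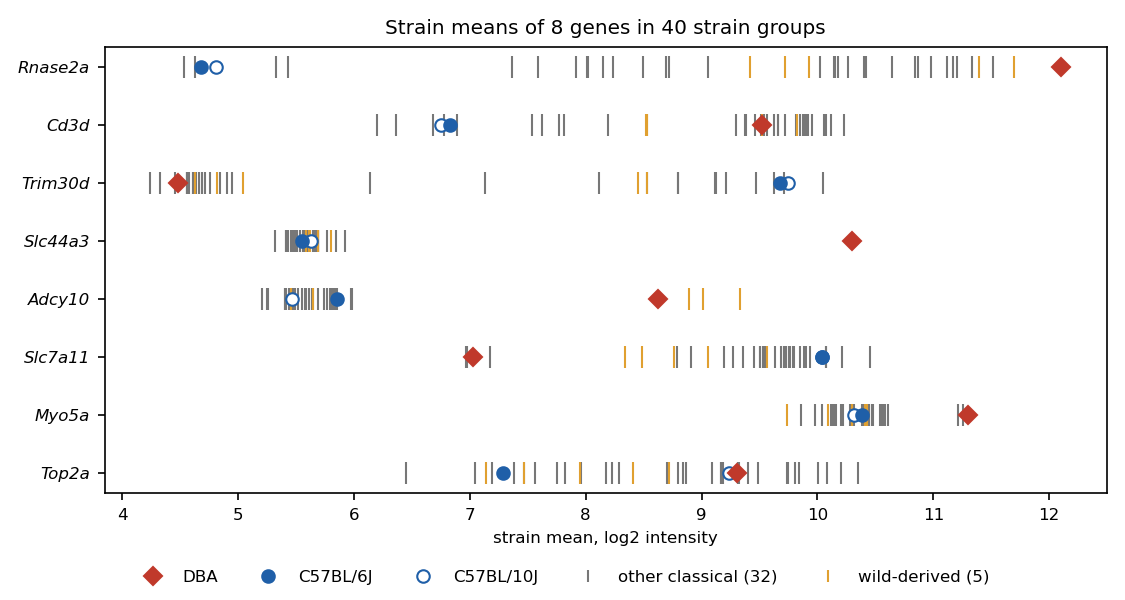
Mean log2 intensity (horizontal axis) of 8 genes in each of the 40 strain groups. DBA is a diamond, C57BL/6J a filled and C57BL/10J an open circle, grey ticks are the 32 remaining classical groups and orange ticks the 5 wild-derived ones; DBA stands alone for Slc44a3, whereas for Cd3d and Trim30d it lies among most other strains.

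Other lower genes had a range of roles. Elovl7, an enzyme that lengthens very-long-chain fatty acids, was at 6.63 and 6.61 in DBA and between 9.98 and 10.13 in C57BL/6J (-3.46 ± 0.17, adjusted p = 5.6e-22). Lrrc8c, a subunit of volume-regulated anion channels, was at 6.91 and 7.18 against 9.36 to 9.64 (-2.47 ± 0.15, adjusted p = 1.1e-18). Atg4c, a protease of autophagy, was at 5.09 and 5.30 against 7.31 to 7.77 (-2.35 ± 0.18, adjusted p = 9.3e-15), and only 3 of the 33 other classical groups lay nearer to DBA. Ramp1, a receptor component for the neuropeptide CGRP, was at 6.67 and 6.68 against 8.27 to 9.12 (-2.23 ± 0.15, adjusted p = 1.9e-17). For Ramp1, DBA had the lowest and C57BL/6J the highest mean of all 40 groups.

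H2-Q10, a nonclassical class I histocompatibility gene, was at 6.61 and 6.46 in DBA against 8.61 to 9.22 in C57BL/6J (-2.33 ± 0.16, adjusted p = 1.4e-16). It was the only called gene of 9 measured in the class I list, which has 17 entries, and none of 9 class II genes was called. H2-K2 of the histocompatibility region is not among these 9 class I genes and was also called lower (-1.996, adjusted p = 5.5e-12). The histocompatibility genes differ in sequence between these strains and resemble each other. Zfp961 and AI987944, 2 genes of zinc-finger or unknown type, were lower by 2.27 ± 0.17 and 3.05 ± 0.18. Gm1966, a predicted gene of the interferon-inducible very large GTPase family, was at 7.72 and 7.52 against 10.17 to 10.73 (-2.78 ± 0.18, adjusted p = 4.2e-18), while its near neighbour Gm4759 of the same family was at 8.28 and 8.06 against 5.59 to 6.04, 2.30 ± 0.20 higher (adjusted p = 4.7e-13).

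Some of these entries carry a limit of their own. Ccdc180 was lower by 2.72 ± 0.16 at its brightest probe set and by 2.37 at another, but the remaining 25 of its 27 probe sets did not pass the test, and the mean over all 27 differed by -0.09 (adjusted p = 0.55). The small nucleolar RNA Rnu3a was at 5.54 and 7.25 in DBA against 8.13 to 8.86 (-2.22 ± 0.59, adjusted p = 0.0095), and the call was lost without DBA replicate 1 (-1.36, adjusted p = 0.47). Ighg3, an immunoglobulin constant region, was at 5.72 and 5.86 against 7.80 to 8.34 (-2.20 ± 0.27, adjusted p = 1.3e-08), while of 8 B-cell markers only Cd22 was called, 0.53 higher in DBA, a call that was lost without DBA replicate 1 (0.38, adjusted p = 0.35).

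In the fit of all arrays, the inflammasome genes that were called were all lower in DBA. Of 15 measured inflammasome genes, 4 were lower and none higher, beside 4.40% of all probe sets lower and 14.7% called among the brighter ones, with a median of -0.24, and 6 were lower without C57BL/6J replicate 1. Naip5 and Naip6, adjacent genes whose proteins recognise flagellin, were at 7.70 and 7.66 against 8.93 to 9.33 and at 6.86 and 6.73 against 8.44 to 8.89. The differences were -1.45 ± 0.14 (adjusted p = 8.0e-12) and -1.89 ± 0.19 (adjusted p = 1.1e-10), and the 2 genes are close copies of each other. Casp4, the caspase that binds intracellular lipopolysaccharide, was at 8.39 and 8.53 against 9.20 to 9.61, 0.93 ± 0.12 lower in DBA (adjusted p = 7.1e-08). Gsdmd, whose product forms the pores of pyroptosis, was -0.34 ± 0.10 (adjusted p = 0.025), a call lost without DBA replicate 1 (-0.24, adjusted p = 0.48) and without C57BL/6J replicate 3 (-0.32, adjusted p = 0.054) or 4 (-0.29, adjusted p = 0.081). Nlrp1a, a sensor encoded in a cluster that varies between strains, was at 8.35 and 7.64 against 6.97 to 7.87 and did not pass the test (0.65 ± 0.22, adjusted p = 0.057), but passed it without DBA replicate 2 (1.00, adjusted p = 0.025) or C57BL/6J replicate 3 (0.78, adjusted p = 0.017), and with all arrays under quantile normalization (0.68, adjusted p = 0.039).

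Of the 7 measured members of the Ifi200 family of DNA-binding interferon-inducible proteins, 3 were lower and none higher (median -0.37), beside 4.40% and 4.00% of all probe sets. Ifi207 was at 4.76 and 4.82 in DBA against 7.12 to 8.15 (-2.81 ± 0.21, adjusted p = 5.3e-15), the lowest mean of the 40 groups. Aim2, the sensor of cytosolic DNA, was at 7.29 and 6.95 against 7.84 to 8.65 (-1.14 ± 0.16, adjusted p = 2.5e-07). Ifi209 was dim in both groups and lower by 0.71 ± 0.16, a call lost without DBA replicate 1 (-0.58, adjusted p = 0.12).

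Genes induced by interferon did not move together. Of 21 measured members of that list, 1 was higher and 2 lower, with a median of -0.03. Without C57BL/6J replicate 1 the count was 5 lower and none higher. Oasl2, related to the oligoadenylate synthetases, was at 10.01 and 9.58 against 10.28 to 10.86 (-0.83 ± 0.20, adjusted p = 0.0034), and the call was lost without DBA replicate 2 (-0.62, adjusted p = 0.25). Zbp1 (-0.61) and Xaf1 (0.68) were near the threshold: without DBA replicate 1 their adjusted p was 0.38 and 0.26 (differences -0.51 and 0.62), without DBA replicate 2 it was 0.12 and 0.14 (-0.71 and 0.74), and Zbp1 also lost its call without C57BL/6J replicate 2, 3 or 5 (-0.57 in each) and Xaf1 without C57BL/6J replicate 1 (0.56). Ifit3 was at 9.53 and 9.08 against 7.98 to 8.94, which did not pass (0.84 ± 0.30, adjusted p = 0.077). It passed without C57BL/6J replicate 4 (0.96, adjusted p = 0.047), with the 7 arrays alone (adjusted p = 0.037) and with dim probe sets left out (adjusted p = 0.048). Of 9 guanylate-binding and immunity-related GTPases, which attack the vacuoles of intracellular parasites and bacteria, 2 were lower and none higher. Over all probe sets the shares were 4.40% and 4.00%. Gbp9 was at 5.99 and 6.26 against 7.55 to 7.98 (-1.68 ± 0.20, adjusted p = 8.9e-09). Gbp7 was lower by 0.63 ± 0.19 (adjusted p = 0.025), a call lost without either DBA array (-0.74 and -0.53) and without C57BL/6J replicate 3 or 4 (-0.60 and -0.59).

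Of 18 measured genes of glutathione synthesis and oxidant defence, 5 were lower and 1 higher, beside 4.40% and 4.00% of all probe sets and 14.7% called among the brighter ones (median -0.13). The list mean was 8.26 and 8.39 in DBA and 8.70 to 8.75 in C57BL/6J replicates 2 to 5, with replicate 1 apart from these at 8.495. Glutathione is the main thiol that buffers oxidants in the cell, and cystine uptake limits its synthesis. Slc7a11 (probe set 10498024), the cystine and glutamate exchanger that supplies this cystine, was at 6.92 and 7.13 in DBA and at 10.05, 9.95, 10.23, 10.13 and 9.85 in C57BL/6J. The difference was -3.01 ± 0.16, an 8.08-fold lower level (adjusted p = 2.1e-21). The other classical groups had a median of 9.71, and 3 of the 33 lay nearer to DBA. Gclm, the modifier subunit of glutamate-cysteine ligase, the first enzyme of glutathione synthesis, was at 9.34 and 9.28 against 9.93 to 10.13 (-0.73 ± 0.14, adjusted p = 0.00020). Gsr, which regenerates reduced glutathione, was at 11.53 and 11.73 against 12.35 to 12.49 (-0.81 ± 0.08, adjusted p = 1.4e-10). Gstp1, a glutathione transferase, was at 7.41 and 7.57 against 7.88 to 8.73 (-1.02 ± 0.19, adjusted p = 8.5e-05).

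The fifth lower gene, the quinone reductase Nqo1, was dim in both groups (5.73 and 5.96 against 6.10 to 6.82, -0.73 ± 0.19) and lost its call without DBA replicate 1 (-0.61, adjusted p = 0.20). Glo1, which detoxifies methylglyoxal and is duplicated in several strains, was at 6.73 and 7.36 against 6.34 to 6.75. Its groups overlapped and the difference of 0.47 ± 0.15 (adjusted p = 0.042) was lost without DBA replicate 2 (0.16, adjusted p = 0.84), C57BL/6J replicate 1 (0.44, adjusted p = 0.070) or 3 (0.42, adjusted p = 0.11), and with arrays set to a common median. The other probe set of Glo1 was also higher (0.56, adjusted p = 0.023). The remaining 12 genes, among them those of catalase, heme oxygenase 1 and the thioredoxin reductase Txnrd1, were not called.

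Gclc, the catalytic subunit of the same ligase (-0.05, adjusted p = 0.91), and Gss, the glutathione synthetase (0.09, adjusted p = 0.74), were not called. The sequences just upstream of Slc7a11 and Gclm are shown because both genes were called lower and both are textbook targets of NRF2, which binds antioxidant response elements. They are the 250 bases before the start of each gene in RefSeq (GRCm38.p6), 5′ to 3′ on the gene's strand, at chr3:50443614-50443863 (minus strand) for Slc7a11 and chr3:122245307-122245556 (plus strand) for Gclm. Capitals mark TGACNNNGC, a core of the antioxidant response element, searched on both strands.
Slc7a11: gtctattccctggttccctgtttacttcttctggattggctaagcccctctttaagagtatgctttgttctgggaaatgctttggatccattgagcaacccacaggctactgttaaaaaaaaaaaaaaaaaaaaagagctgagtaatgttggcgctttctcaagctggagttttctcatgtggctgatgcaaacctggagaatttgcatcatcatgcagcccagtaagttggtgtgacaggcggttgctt
Gclm: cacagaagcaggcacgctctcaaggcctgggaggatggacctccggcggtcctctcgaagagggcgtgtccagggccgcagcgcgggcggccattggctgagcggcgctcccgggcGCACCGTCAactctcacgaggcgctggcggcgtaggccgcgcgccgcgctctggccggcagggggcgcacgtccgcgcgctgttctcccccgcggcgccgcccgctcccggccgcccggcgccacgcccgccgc
One match lies in the Gclm window, on the reverse strand, and none in the Slc7a11 window. The motif was found in 3 of 13 list members with an entry in the promoter table (23.1%) and in 11.5% of 27025 genes. These shares describe the genes of the list and not the difference between strains, and a part of NRF2 in that difference was not tested.

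**Figure D3:**
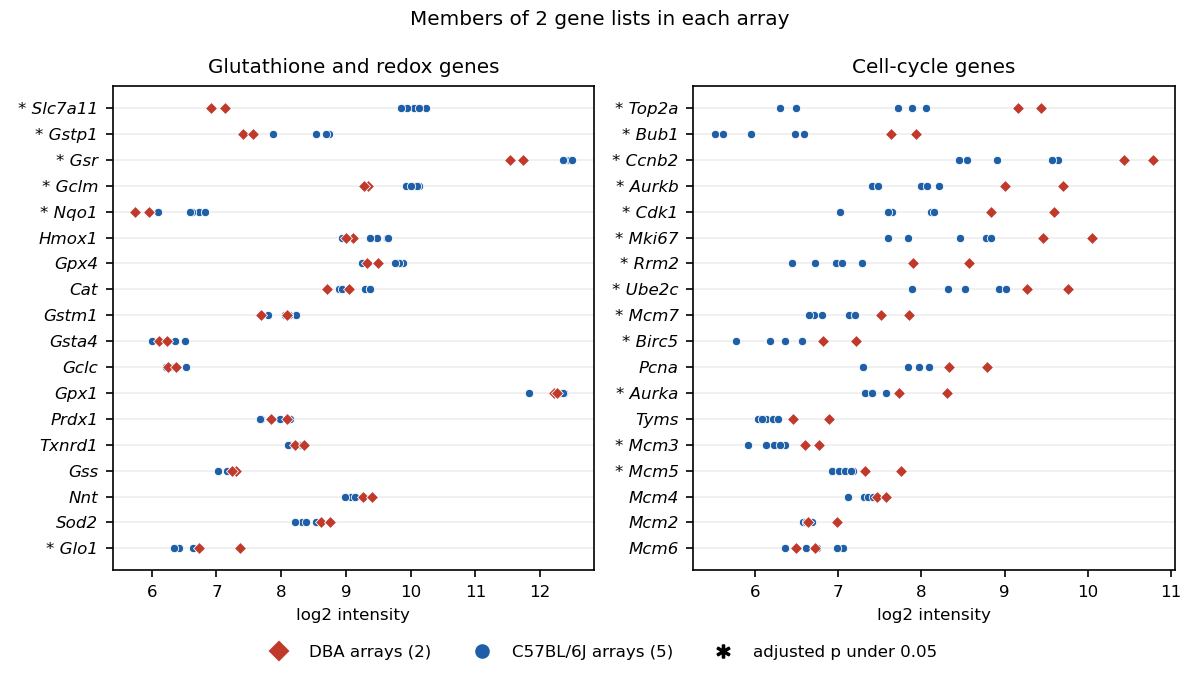
Log2 intensity (horizontal axis) in each array for the measured members of the glutathione and redox list (left) and the cell-cycle list (right), 18 genes each. Diamonds are the 2 DBA arrays and circles the 5 C57BL/6J arrays; a star before a name marks an adjusted p under 0.05, which 5 redox genes reached as lower, 1 as higher and 13 cell-cycle genes as higher in DBA.

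Genes of cell division were higher in DBA than in C57BL/6J. Of 18 measured cell-cycle genes, 13 were higher and none lower, 17 had a positive difference, and the median was 0.76, against 0.03 over all probe sets. In 16 of the 18 the arrays of the groups did not overlap, with DBA above in each, where 12.7% of all probe sets lay wholly higher in DBA and 10.1% wholly lower. Top2a, the DNA topoisomerase of dividing cells, was at 9.17 and 9.44 in DBA and at 7.72, 6.29, 6.49, 8.06 and 7.89 in C57BL/6J, 2.01 ± 0.34 higher (adjusted p = 1.6e-05). Bub1, a kinase of the spindle checkpoint, was 1.76 ± 0.25 higher (7.63 and 7.94 against 5.52 to 6.59, adjusted p = 4.1e-07). Ccnb2, a mitotic cyclin, was 1.59 ± 0.23 higher (10.43 and 10.78 against 8.45 to 9.64, adjusted p = 9.2e-07), and Aurkb, a kinase of chromosome segregation, 1.52 ± 0.18 higher (9.0 and 9.71 against 7.40 to 8.21, adjusted p = 7.2e-09).

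The C57BL/6J arrays varied among themselves in these genes. The list mean was 7.21, 6.92, 7.01, 7.53 and 7.49 in C57BL/6J and 7.95 and 8.37 in DBA. Without DBA replicate 2, the higher of the pair, 5 of the 18 genes were called, and without DBA replicate 1, 13 were. None of Top2a, Bub1, Ccnb2 and Aurkb was called between DBA and the 33 other classical groups, where Top2a was 0.52 ± 0.29 higher (adjusted p = 0.41). The same gene differed between C57BL/6J and these groups by -1.49 (adjusted p = 1.7e-08), and C57BL/10J, at 9.24, stood near DBA and not near C57BL/6J. Both contrasts use the same 33 groups.

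The upstream sequences of Top2a and Ccnb2 are shown because division genes are controlled by shared elements, the CCAAT box and the cell cycle homology region, the latter read by the DREAM and MuvB complexes. They are the 250 bases before the start of each gene in RefSeq (GRCm38.p6), 5′ to 3′ on the gene's strand, at chr11:99024190-99024439 and chr9:70421555-70421804, both on the minus strand. Capitals mark CCAAT and the homology region motifs TTTGAA and TTCGAA, searched on both strands.
Top2a: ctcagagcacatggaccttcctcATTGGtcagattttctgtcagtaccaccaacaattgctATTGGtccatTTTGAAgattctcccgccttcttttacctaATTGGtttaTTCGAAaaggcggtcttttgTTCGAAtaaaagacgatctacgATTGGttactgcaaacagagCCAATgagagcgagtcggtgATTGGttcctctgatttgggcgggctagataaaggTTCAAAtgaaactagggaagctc
Ccnb2: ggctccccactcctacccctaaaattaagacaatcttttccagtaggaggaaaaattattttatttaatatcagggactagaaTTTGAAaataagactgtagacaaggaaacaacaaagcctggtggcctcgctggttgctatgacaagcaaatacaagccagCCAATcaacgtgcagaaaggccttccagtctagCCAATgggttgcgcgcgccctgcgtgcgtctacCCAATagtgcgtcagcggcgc
The Top2a window holds 6 CCAAT and 4 homology region matches, and the Ccnb2 window 3 and 1. CCAAT was found in 14 of 16 cell-cycle genes with an entry (87.5%) and in 37.5% of all 27025 genes, and either homology region motif in 7 of 16 (43.8%) and 19.6%. These shares describe the genes of the list and not the difference between strains.

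Granule genes mark the stages of neutrophil maturation, from azurophil over specific to gelatinase granules. Most were not called. Of 9 azurophil granule genes 1 was called, of 14 specific granule genes 3, of 7 gelatinase granule genes 1, and none of 5 genes of the NADPH oxidase, the enzyme that makes superoxide. Over all probe sets 8.40% were called, and 14.7% among the brighter ones. Many granule genes were near the bright end, the brightest being Lcn2 with means of 13.93 in DBA and 13.91 in C57BL/6J. Whether intensity still follows transcript level there was not tested. Olfm4, a specific granule protein found in only a subset of neutrophils, was at 12.82 and 13.00 in DBA against 11.76 to 12.02, 1.01 ± 0.10 higher (adjusted p = 9.3e-11). Fcnb, the lectin ficolin B, was at 9.53 and 9.97 against 7.55 to 9.09, 1.37 ± 0.24 higher (adjusted p = 2.5e-05), with a wide spread among C57BL/6J arrays. Orm1, an acute-phase protein, was at 10.28 and 10.58 against 8.93 to 10.03 (0.89 ± 0.23), a call lost without DBA replicate 2 (0.73, adjusted p = 0.21). Cd63, a membrane protein of azurophil granules, was at 8.68 and 9.16 against 9.43 to 9.91 (-0.84 ± 0.19), a call lost without DBA replicate 1 (-0.60, adjusted p = 0.23). The chitinase-like Chil3 was at 11.28 and 11.63 against 11.59 to 12.13 (-0.50 ± 0.16), and lost its call without either DBA array (-0.32 and -0.67) and without C57BL/6J replicate 2 (-0.45), 4 (-0.47) or 5 (-0.46).

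Of 11 genes of mature neutrophils, Ccrl2, an atypical chemokine receptor, was higher at 7.30 and 7.45 against 6.08 to 6.47 (1.13 ± 0.26, adjusted p = 0.0017; without DBA replicate 2, 1.05 and 0.072), and Il1r2, the decoy receptor of interleukin 1, was lower at 10.06 and 10.12 against 10.55 to 11.06 (-0.79 ± 0.14, adjusted p = 5.9e-05). Of 7 stefins and antiproteases, inhibitors of cysteine and serine proteases that neutrophils make in large amounts, 3 were lower and none higher. Over all probe sets the shares were 4.40% and 4.00%, and 14.7% were called among the brighter ones. Stfa3 was at 5.79 and 6.37 against 7.36 to 7.98 (-1.58 ± 0.21, adjusted p = 1.1e-07). Wfdc21, a small whey acidic protein, was at 10.69 in both DBA arrays against 11.21 to 11.56 (-0.74 ± 0.13, adjusted p = 2.1e-05). Stfa2 was lower by 0.85 ± 0.23, a call lost without either DBA array (-0.81 and -0.89, adjusted p = 0.16 and 0.10). Stefins are near copies of each other, and their probe sets may share transcripts. Of 14 immediate early and stress genes Nr4a1, a nuclear receptor induced within minutes of stimulation, was the only one called, at 8.26 and 8.19 against 7.55 to 7.74 (0.57 ± 0.11, adjusted p = 0.00033), while 2 were higher without C57BL/6J replicate 3 or 5. Of 7 genes of haem synthesis only Ppox was called (-0.57 ± 0.15), and not without either DBA array (-0.52 and -0.62, adjusted p = 0.15 and 0.065), whereas 3 were lower without C57BL/6J replicate 1.

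Most receptors at the cell surface were not called. Over all probe sets the share called was 8.40%, and 14.7% among the brighter ones. Among 22 cytokine receptors, 1 was higher and 3 lower (median -0.05). Ifnar2, the binding chain of the type I interferon receptor, was at 12.12 and 12.15 against 11.20 to 11.38 (0.85 ± 0.08, adjusted p = 2.3e-11), the highest mean of the 40 groups. Besides Il1r2, the lower ones were Csf2ra, the alpha chain of the GM-CSF receptor (-0.43 ± 0.12), and Tnfrsf1b, a receptor of tumour necrosis factor (-0.62 ± 0.17). Csf2ra lost its call without either DBA array (-0.46 and -0.39, adjusted p = 0.092 and 0.21), and Tnfrsf1b without DBA replicate 2 (-0.42, adjusted p = 0.44) or C57BL/6J replicate 3 (-0.53, adjusted p = 0.053).

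Of 13 adhesion genes, Itgb1 was higher and Itgb2l, an integrin beta chain of granulocytes, lower, at 10.98 and 11.05 against 11.95 to 12.15 (-1.06 ± 0.11, adjusted p = 2.4e-10). Of 11 chemoattractant receptors, C5ar2, a second receptor of the complement fragment C5a, was lower at 10.14 and 10.00 against 10.65 to 10.91 (-0.68 ± 0.12, adjusted p = 2.3e-05). Cxcr1 was lower by 0.46 ± 0.13, and not called without DBA replicate 2 (-0.35, adjusted p = 0.39) or C57BL/6J replicate 3 (-0.36, adjusted p = 0.081). Ccr2, a receptor of monocyte chemoattractants, was near the dim end at 4.93 and 4.87 against 4.20 to 4.42 (0.62 ± 0.15), and not called without DBA replicate 1 (0.59, adjusted p = 0.076).

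Of 18 Fc and inhibitory receptors, 4 were lower and none higher (median -0.11). Over all probe sets 4.40% were lower and 4.00% higher, and 14.7% were called among the brighter ones. All 4 were lower by less than 1 log2 unit. In 8 of the 18 the DBA arrays lay wholly below the C57BL/6J arrays and in none wholly above. Of all probe sets, 10.1% lay wholly lower in DBA and 12.7% wholly higher. The list mean was 10.75 and 10.73 in DBA and 10.80 to 10.95 in C57BL/6J. Siglece, an inhibitory sialic acid receptor of neutrophils, was at 11.36 and 11.34 against 11.65 to 12.00 (-0.51 ± 0.09, adjusted p = 2.4e-05), and Fcgr3, an activating IgG receptor, at 11.35 and 11.41 against 11.55 to 11.88 (-0.40 ± 0.08, adjusted p = 0.00079). Cd300ld (-0.67 ± 0.17) and Cd33 (-0.37 ± 0.08) were not called without DBA replicate 2 (-0.56 and -0.31, adjusted p = 0.19 and 0.099). Of 19 pattern recognition genes, 1 was higher and 3 lower (median 0.00). Cd14, which presents lipopolysaccharide to its receptor, was at 7.40 and 7.81 against 6.35 to 6.88 (1.01 ± 0.23, adjusted p = 0.0017), and Ly96, the lipopolysaccharide-binding partner of TLR4, at 10.13 and 10.37 against 10.78 to 11.43 (-0.88 ± 0.20, adjusted p = 0.0017). Cd14 was not called without DBA replicate 2 (0.80, adjusted p = 0.15), nor Ly96 without DBA replicate 1 (-0.76, adjusted p = 0.098). Tlr6 (-0.50 ± 0.14) and the fungal receptor Clec4e (-0.43 ± 0.13) were not called without either DBA array (Tlr6 -0.54 and -0.46, Clec4e -0.40 and -0.46) or without C57BL/6J replicate 3 or 4 (Tlr6 -0.43 and -0.45, Clec4e -0.39 and -0.39).

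**Figure D4:**
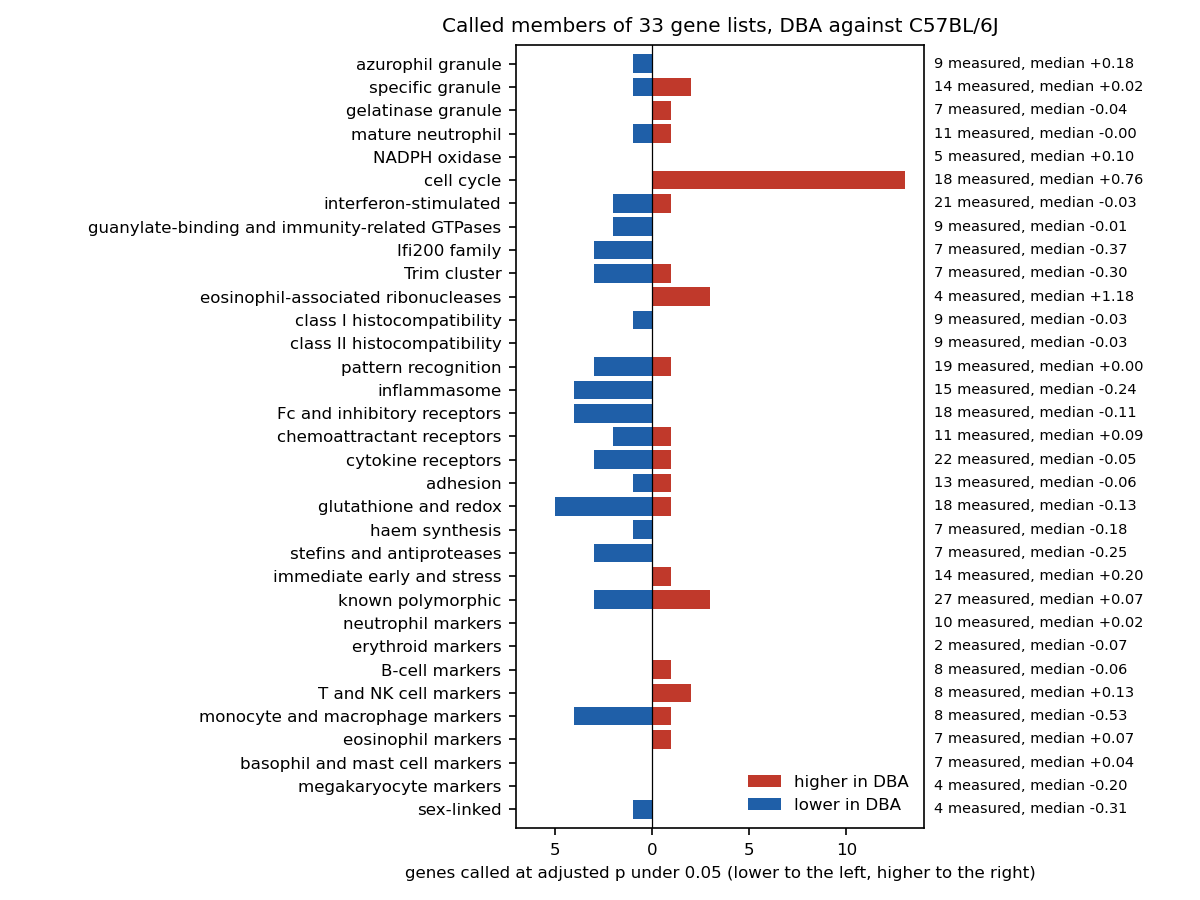
Number of called genes (horizontal axis, lower in DBA to the left, higher to the right) in each of the 33 gene lists, with the number measured and the median log2 difference at the right. The cell-cycle list has the most calls, 13 of 18, all higher, and the neutrophil marker and NADPH oxidase lists have none.

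Markers of monocytes and macrophages were called in both directions, and only the lower call of Adgre1 held without either DBA array. Of 8 monocyte and macrophage markers, 4 were lower and 1, Ccr2, higher, beside 4.40% and 4.00% of all probe sets. The median was -0.53, and the mean of the 8 was 6.79 and 6.78 in DBA and 7.07 to 7.54 in C57BL/6J. Adgre1, the gene of the main surface antigen of mouse macrophages, was at 7.07 and 6.78 against 8.61 to 9.36 (-1.94 ± 0.18, adjusted p = 7.2e-12). The means of the other classical groups ran from 6.40 (KK) to 9.08 (129) for this gene. C1qb (-0.83), C1qc (-0.63) and Ly86 (-0.71) were close to the threshold and none was called without either DBA array: without replicate 1 the differences were -0.81, -0.63 and -0.63 and without replicate 2 they were -0.84, -0.63 and -0.79. C1qb also lost its call without C57BL/6J replicate 3 (-0.85), 4 (-0.70) or 5 (-0.73), and C1qc without replicate 4 (-0.51) or 5 (-0.55). Ccr2 lost its call without DBA replicate 1 (0.59, adjusted p = 0.076), so that 1 marker, Adgre1, was lower without either DBA array. Cd68, a lysosomal protein of macrophages, was looked at after its value was seen. It was at 8.81 and 8.33 against 9.71 to 10.37 (-1.58 ± 0.18, adjusted p = 2.6e-09), the lowest mean of the 40 groups. The part that macrophages in the sorted fraction have in these differences was not tested.

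No marker was called among 7 of basophils and mast cells, 4 of megakaryocytes and 2 of erythroid cells. Of 4 sex-linked genes, which check that both groups are male, Kdm5d was lower by 0.52 ± 0.14, a call lost without DBA replicate 2 (-0.40, adjusted p = 0.33), and Xist did not pass the test (0.12, adjusted p = 0.61).

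Of 27 measured genes known for alleles that differ between mouse strains, 3 were higher, 3 lower and 21 not called. Myo5a, the myosin that carries melanosomes and the gene of the dilute coat colour, is mutated in DBA by a retroviral insertion. It was at 11.37 and 11.23 in DBA and at 10.55, 10.28, 10.22, 10.57 and 10.33 in C57BL/6J (0.91 ± 0.14, adjusted p = 4.5e-06). DBA had the highest mean of the 40 groups (11.30), but the groups titled P (11.25) and SEA (11.21) were close to it. The difference from the 33 other classical groups was 0.92 (adjusted p = 2.0e-07), while C57BL/6J differed from them by 0.01. Apobec3, a cytidine deaminase that restricts retroviruses, was at 7.81 and 7.70 against 8.60 to 9.24 (-1.20 ± 0.14, adjusted p = 2.6e-09), and 27 of 33 groups lay nearer to DBA. Its other probe set was lower by less (-0.43, adjusted p = 0.0022). Naip5 and Trim30d were the other lower genes, and Glo1 and Raly the other higher ones. Raly, the gene deleted in the lethal yellow allele, was higher by 0.37 ± 0.11, and not called without DBA replicate 2 (0.28, adjusted p = 0.39) or C57BL/6J replicate 1 (0.28, adjusted p = 0.066); Glo1 was not called without DBA replicate 2 (0.16).

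Several known alleles left no called difference in these cells. Nnt, the transhydrogenase of mitochondria that carries a deletion in C57BL/6J, was at 9.26 and 9.41 in DBA and 8.99 to 9.25 in C57BL/6J (0.19 ± 0.12, adjusted p = 0.42), though C57BL/6J was lower than the 33 other classical groups by 0.52 (adjusted p = 4.1e-08). Alad, an enzyme of haem synthesis whose gene is duplicated in several strains, was at 6.92 and 7.21 against 6.61 to 6.95 (0.28 ± 0.13, adjusted p = 0.21). Hc, the gene of complement C5, differed by 0.07 (adjusted p = 0.76). The 21 genes not called ran from -0.15 for Cd244a to 0.30 for Nlrp1b.

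Each strain was also set against the mean of the 33 other classical groups, to show on which side a difference lies. DBA had 138 probe sets called at 2-fold against them (0.554%), 70 higher (0.281%) and 68 lower (0.273%), and C57BL/6J 169 (0.678%), 69 higher (0.277%) and 100 lower (0.401%). At any size 4.66% of probe sets were called for DBA, 1.87% as higher and 2.80% as lower, and 11.8% for C57BL/6J, 5.59% as higher and 6.26% as lower. The DBA count at any size, 1162, was 437 without DBA replicate 1 and 494 without DBA replicate 2. These contrasts share the 33 groups with each other and an array group with the main comparison, so their values are given side by side and not as separate evidence. All 15 genes with the largest increases were called higher in DBA than in the 33 groups, and 11 of the 15 were also called lower in C57BL/6J than in those groups. All 15 genes with the largest decreases were called lower in DBA, and 12 of them higher in C57BL/6J. DBA had the highest mean of all 40 groups in 4 of the first 15 and the lowest in 3 of the second 15.

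The split differed from gene to gene. For Slc44a3 DBA exceeded the 33 groups by 4.70 and C57BL/6J differed from them by -0.04 (adjusted p = 0.80). For Cd93 the values were 2.90 and 0.01 (adjusted p = 0.96), and for Adgrg6 3.06 and 0.17 (adjusted p = 0.16). DBA stood alone for Slc44a3 but not for Cd93, where some of the 33 groups were as bright. Slc7a11 was at -2.41 in DBA and at 0.60 in C57BL/6J relative to the 33 groups. For Rnase2a DBA was at 3.12 and C57BL/6J at -4.31, for Trim30d at -1.93 and 3.27, and for Cd3d at 0.64 and -2.05. Naip5 was not called in DBA (-0.17, adjusted p = 0.55) and was 1.28 higher in C57BL/6J, with 28 of 33 groups nearer to DBA.

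Genes called at 2-fold lay in places side by side on the chromosomes. By the order of genes in the RefSeq table, 57 of the 265 such genes formed 27 runs in which at most 2 measured genes that were not called at 2-fold lay between neighbours, among 19732 genes placed. In 22 runs all called genes moved in 1 direction and in 5 they moved in both. Rnase6, Rnase2b and Rnase2a formed 1 run, with Rnase1 (0.00), Ang2 (0.20) and Ear14 (0.17) between them not called. Trim12a and Trim30d, Naip5 and Naip6, and Cd3d and Cd3g formed others. H2-K2 (-1.996), AA388235 (-1.12) and H2-Ke6 (-1.77) fell together in the histocompatibility region, Mal2 (2.38) and Ccn3 (1.97) rose together, and Gnptab rose with Chpt1 (1.40). Runs with genes of opposite direction included Gm4759 and Gm1966, Rfk (1.30) and Nmrk1 (-1.19), and Adcy10 and Mpzl1 (-1.94). Without DBA replicate 2, Cd3g was not called (0.92) and would not form a run.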

How the data were processed

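The data are Affymetrix mouse gene ST 1.0 arrays of sorted granulocytes, 2 of DBA and 5 of C57BL/6J among 81. The deposited table holds intensity on a linear scale, 1 value per probe set and array; per the submitters' processing notes it was made with Affymetrix Power Tools and RMA (background correction, quantile normalization and summary per probe set), and no version or build is given by these notes. Values were taken to log2. A linear model (limma 3.58.1 in R 4.3.3) was fitted to all 24922 probe sets with 1 mean per titled group over all 81 arrays (41 residual and 7.93 prior degrees of freedom), and p-values were adjusted by Benjamini-Hochberg over all probe sets. Called means an adjusted p under 0.05, and at 2-fold also a difference of at least 1; no probe set was filtered. The number of arrays limits the precision. P-values and SE use the spread between pools of mice as estimated over all 40 groups, not the spread of the 2 DBA arrays alone.

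Probe sets were named through the platform table: 21425 had 1 symbol, 1399 several and 2098 none, and only those with 1 were named. A gene is represented by its brightest probe set. Of 19752 genes 19677 matched the reference table. Named are the 15 genes higher and 15 lower with the largest difference among those called at 2-fold without overlap of arrays whose higher group averages at least 7, up to 4 members of each of 33 lists by size of difference, further called or contrasting members, all probe sets of a named gene, and the members of the list of known strain alleles, of which those not called are summarised by their range; 360 of 424 list entries were measured. The members and lists were chosen with earlier results of these data known. Promoter sequences are RefSeq's. The model was tested on simulated data. Alternatives were another normalization, prior, filter and grouping, the replicate number as a block, and each array left out.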

Additional observations from a re-analysis of the deposited data

Results flagged for a closer look

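In 140 checks of whether 1 of the 5 C57BL/6J arrays stood apart (107 genes and 33 list means), 7 values did, by a gap of over 0.71 of the group's range; about 1 in 20 such checks is flagged by chance. Replicate 1 gave 6 of the 7. It was the highest for Slc44a3 (5.734, the others 5.473 to 5.536) and for the mean of the basophil and mast cell markers (5.8, the others 5.671 to 5.691). It was the lowest for Ramp1 (8.27, the others 9.009 to 9.125), Gstp1 (7.875, the others 8.533 to 8.735), Fcgr3 (11.55, the others 11.8 to 11.88) and the mean of the glutathione and redox list (8.495, the others 8.701 to 8.754). Replicate 2 was the lowest for AI987944 (7.579, the others 7.825 to 7.904). In each case the 2 DBA arrays lay on the same side of all 5 C57BL/6J arrays, except for the basophil and mast cell marker mean, where they lay within the C57BL/6J range. Without C57BL/6J replicate 1, Slc44a3, Ramp1, Gstp1, Fcgr3 and AI987944 were still called.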

How the results depend on the processing

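The number of probe sets called at 2-fold between DBA and C57BL/6J (360) ran from 285, with probe sets of a mean under 7 left out, to 396, and its leave-one-out range was 313 (without DBA replicate 2) to 396 (without DBA replicate 1). With arrays set to a common median it was 349, of which 335 were calls of the first fit in the same direction; the share of higher calls of any size was then 36.3%, against 47.6%, and the median difference -0.02. Against the other classical groups the leave-one-out ranges were 125 to 151 for DBA and 148 to 192 for C57BL/6J. With no minimum difference the counts were 2094, 1162 and 2953, since small differences then count. Without the groups whose titles and background labels conflict, the counts at 2-fold were 360, 139 and 178. The groups share replicate numbers that no label ties to a day or litter. Deviations from the group mean correlated at 0.16 and 0.18 in the 2 pairs of like number and at -0.19 to 0.19 in the others. With only 2 DBA arrays their deviations are equal and opposite. The values for DBA replicate 2 are therefore those for DBA replicate 1 with the sign reversed. For this reason the check cannot show whether arrays of like number belong together. With the replicate number as a block, 383 probe sets were called between DBA and C57BL/6J, 138 for DBA and 219 for C57BL/6J against the other groups. At any size the block gave 1340 (754 higher, 586 lower), 1115 and 1533, and of 107 genes checked 18 lost the call and 1, Ifit3, gained it (1.12, adjusted p = 0.041). Of 97 called genes checked, 62 stayed called under every alternative that was run for them and 35 lost the call under at least 1, most often without a DBA array; the filter on dim probe sets and the mean over probe sets applied to only some genes, and none of 1586 values changed sign past the threshold. The arrays give no depth, and genes near the dim end have only imprecise levels.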

Other observations

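A few further genes were picked after their large values were seen; all act on choline or its esters, but no list of that pathway was counted. Chpt1, which makes phosphatidylcholine from CDP-choline, was at 8.05 and 8.10 in DBA and between 6.53 and 6.80 in C57BL/6J (1.40 ± 0.13, adjusted p = 4.0e-12). Slc44a1, the widely expressed choline transporter-like protein, was at 8.63 and 8.10 against 9.96 to 10.84 (-2.09 ± 0.21, adjusted p = 4.9e-11), and its other probe set gave a difference of -1.88. Phospho1, a phosphatase of phosphocholine and phosphoethanolamine, was at 9.17 and 9.06 against 10.68 to 11.33 (-2.03 ± 0.20, adjusted p = 1.6e-11). These 3 genes and Slc44a3 were called in each fit without 1 array. Against the 33 other classical groups DBA was at 4.70 for Slc44a3, 1.07 for Chpt1, -1.88 for Slc44a1 and -1.84 for Phospho1, whereas C57BL/6J was at -0.04, -0.32, 0.21 and 0.19. For Slc44a1 and Phospho1 only 2 and 4 of the 33 groups lay nearer to DBA.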
